A study of Homo sapiens with 4 samples.

Results

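SOX4, SOX11, LEF1 and TCF4 encode 4 transcription factors, taken here under the label of SOX and TCF/LEF factors. The H3K27ac peaks over these genes were compared between REH and 697 cells. Each gene was taken as its hg19 gene body at kilobase precision with 10 kb on each side, and every peak that overlapped this window by at least 1 bp was counted. The windows held 25 of the 44626 peaks of REH and 37 of the 74504 peaks of 697. REH and 697 are human B-ALL cell lines grown in RPMI with serum and without further treatment. REH carries the ETV6/RUNX1 fusion. The line 697 lacks it. For each line there was 1 H3K27ac ChIP-seq library and 1 input library of the same cells, so no difference below has a replicate check, each line stands for itself only, and the fusion cannot be told apart from any other difference between the lines or libraries. After duplicate removal 65241657 ChIP tags were left in REH and 68911420 in 697.

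Acetylation of lysine 27 on histone H3 marks nucleosomes at active promoters and enhancers, and a MACS peak is a region where the pileup of ChIP fragments exceeds the local background. SOX4 and SOX11 belong to the SOXC group of HMG-box factors. SOX4 is needed for early B-cell development, and SOX11 is best known as a diagnostic marker of mantle cell lymphoma. LEF1 is an HMG-box factor that binds β-catenin at the end of the Wnt pathway and is active in pro-B cells. TCF4, also called E2-2, is despite its symbol no member of the TCF/LEF family. It is a basic helix-loop-helix E protein, related to TCF3 and TCF12, that binds E-boxes and is kept from DNA by the ID proteins. The label of SOX and TCF/LEF factors therefore holds for SOX4, SOX11 and LEF1, and TCF4 is treated here as an E protein.

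The 4 genes differ in their start regions, and the bases before these starts are shown because at TCF4 no peak lay over the 5′ end of the gene body, and at SOX4 none lay over it at kilobase precision. Upstream sequence from RefSeq (GRCh38.p14) was matched for 3 of the 4 genes, with 1 entry for SOX4, 1 for LEF1 and 10 for TCF4. SOX11 had no entry. The positions given with the sequences are on GRCh38, were not transferred to hg19 and were not combined with the peaks. Only bases outside annotated UTRs are printed. The LEF1 entry lies wholly in an annotated UTR and is not shown, and of the TCF4 entries those nearest the 5′ end are shown. Capitals mark matches, on either strand, to the E-box CANNTG, the RUNX core TGTGGT, the TCF/LEF site ATCAAAG and the SOX core AACAAT.
SOX4, 250 bases, plus strand, chr6:21593501-21593750: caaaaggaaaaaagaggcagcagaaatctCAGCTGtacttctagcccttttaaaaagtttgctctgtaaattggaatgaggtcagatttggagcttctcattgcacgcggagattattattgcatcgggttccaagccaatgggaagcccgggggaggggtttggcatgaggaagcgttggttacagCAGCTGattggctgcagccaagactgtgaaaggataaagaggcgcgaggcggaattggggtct
TCF4 start 1, 180 bases, minus strand, chr18:55636028-55636207: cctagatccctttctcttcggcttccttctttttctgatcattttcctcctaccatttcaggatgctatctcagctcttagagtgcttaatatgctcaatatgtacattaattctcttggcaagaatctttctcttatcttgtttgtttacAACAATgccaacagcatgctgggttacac
TCF4 start 2, 215 bases, minus strand, chr18:55589847-55590061: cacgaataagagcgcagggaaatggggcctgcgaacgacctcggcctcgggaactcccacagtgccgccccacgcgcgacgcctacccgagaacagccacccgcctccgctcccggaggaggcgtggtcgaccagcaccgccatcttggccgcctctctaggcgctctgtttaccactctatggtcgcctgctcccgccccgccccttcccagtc
TCF4 start 3, 238 bases, minus strand, chr18:55588630-55588867: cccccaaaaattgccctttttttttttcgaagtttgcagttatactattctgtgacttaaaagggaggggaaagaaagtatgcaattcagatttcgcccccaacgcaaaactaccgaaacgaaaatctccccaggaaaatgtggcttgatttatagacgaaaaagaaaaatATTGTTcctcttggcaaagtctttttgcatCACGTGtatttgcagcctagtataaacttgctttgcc

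The SOX4 stretch held 2 E-boxes, both of the form CAGCTG, and no match to the other letters searched. The stretch of TCF4 start 1 lies within RPL21P126, a processed ribosomal protein pseudogene in RefSeq, and held 1 SOX core. In contrast, the stretch of TCF4 start 2 held no match and was GC-rich, with 68.0% GC and an observed to expected CpG ratio of 0.933 over its 250 upstream bases, against 40.8% and 0.21 at start 1. The median over all 35116 RefSeq upstream regions of 250 bases was 58.0% GC and a CpG ratio of 0.558. The stretch of TCF4 start 3 held 1 E-box and 1 SOX core. Of all such upstream regions, 61.8% held an E-box, 8.98% the SOX core, 11.0% the RUNX core and 2.26% the TCF/LEF site, so an E-box match is common. A match is a description of the letters and not a binding site. On GRCh38, start 2 lies 46.1 kb and start 3 lies 47.3 kb inside start 1.

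All 4 genes carried H3K27ac peaks in both cell lines. Peaks covered 15888 bp of the 26 kb window of SOX4 in REH and 13848 bp in 697. At SOX11 they covered 8855 bp of 30 kb in REH and 5650 bp in 697. In the 143 kb around LEF1 the covered length was 20171 bp for REH and 15998 bp for 697, and in the 435 kb around TCF4 it was 29905 bp for REH and 38152 bp for 697. In these windows REH had more bases under peaks at SOX4, SOX11 and LEF1, and 697 had more at TCF4. With 50 kb flanks the order turned at SOX4, where REH had 19128 bp and 697 had 22760 bp. It turned at LEF1 too, where REH had 25975 bp and 697 had 26635 bp. When only peaks at an FDR of at most 5% were kept, TCF4 had nearly equal values, 29905 bp in REH and 30070 bp in 697. In the windows with 10 kb flanks, the larger value was 1.15 times the smaller at SOX4, 1.57 times at SOX11, 1.26 times at LEF1 and 1.28 times at TCF4.

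A locus was called differential when only 1 line had a peak or when the covered bases differed at least 2 times, and 0 of the 4 genes met this rule. Among all genome tiles with a peak in either line, the same rule called 67.7% of 26 kb tiles, 67.1% of 30 kb tiles, 57.9% of 143 kb tiles and 51.7% of 435 kb tiles. Of the tiles with a peak in both lines, the rule called between 40.4% and 42.2% at the 4 widths. With 4 loci chosen for their function, the count of 0 is a description of these genes and was not tested against the tiles.

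**Figure D1:**
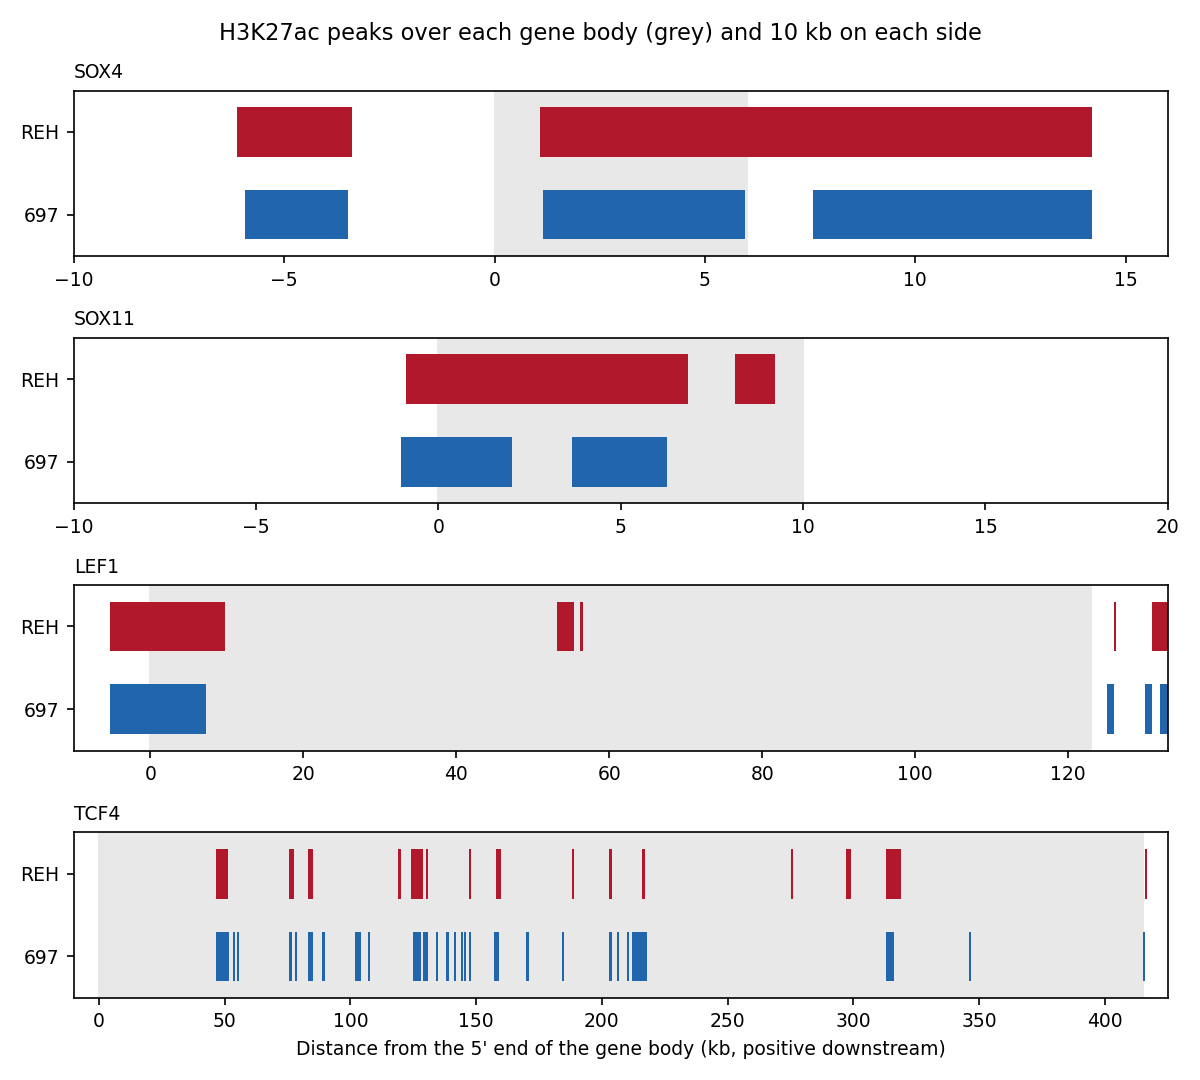
H3K27ac peaks of REH (red) and 697 (blue) over SOX4, SOX11, LEF1 and TCF4, drawn by distance in kb from the 5′ end of the gene body (grey), each panel on its own scale. At SOX4 and LEF1 the blocks of the lines lie over each other, and at TCF4 the 28 peaks of 697 are more numerous than the 16 of REH. The whole 697 list also holds more peaks than that of REH.

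SOX4 had the largest share of its window under peaks, 61.1% in REH and 53.3% in 697. In REH, 2 peaks were called. One of 2740 bp lay upstream, from 21586867 to 21589606 on chromosome 6 of hg19. The other of 13148 bp ran from 21594084 to 21607231, over the gene body and 8.23 kb past its 3′ end. In 697, 3 peaks were called, of 2438, 4806 and 6604 bp. The first lay within the upstream peak of REH, and the other 2 lay within the long REH peak, with a gap of 1626 bp between them at the 3′ end of the gene. Every base under a 697 peak in this window was under a REH peak as well, and REH had 2040 bp more. In both lines the block began just inside the gene, 1.08 kb in REH and 1.15 kb in 697 after the start as given to the kilobase. If that start was rounded down, the first base lies less than a kilobase after it, and neither block reached it. The rounding was not checked against an hg19 annotation.

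The peak over SOX4 was among the longest in REH. Its length ranked 123 of 44626 peaks, in the top 0.276%. The longest SOX4 peak of 697 ranked 1054 of 74504, in the top 1.41%. Joining peaks within 2000 bp, a setting added after the data were seen, closed the gap in 697 and brought the difference at SOX4 to 414 bp. Few tiles had as much covered sequence, with 0.416% of the 26 kb tiles at or above the SOX4 value in REH and 1.52% in 697.

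SOX11 had 2 peaks in each line. In REH the first, 7739 bp long, spanned 5831108 to 5838846 of chromosome 2, over the 5′ end and most of the gene, which has a single exon, and a peak of 1116 bp followed at 5840115 to 5841230. In 697 the peaks were of 3039 bp, from 5830984 to 5834022, and of 2611 bp, from 5835666 to 5838276. Both lines therefore had a peak across the 5′ end, and 697 had a gap of 1643 bp inside the gene where REH had none. Peaks covered 79.6% of the gene body in REH and 46.3% in 697. Of the 5650 bp under 697 peaks, 97.8% lay under REH peaks, while 62.4% of the 8855 bp of REH lay under 697 peaks. The second REH peak, over the 3′ part of the gene, overlapped no 697 peak. By length the first REH peak ranked 521 of its list and the longest 697 peak ranked 6748.

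LEF1 was marked mainly at its 5′ end. The block of REH, 15028 bp long and spanning 109081237 to 109096264 of chromosome 4, ran from 5.26 kb upstream of the 5′ end to 9.76 kb inside the gene. The corresponding 697 peak of 12669 bp, from 109083666 to 109096334, ran from 5.33 kb upstream to 7.33 kb inside. The upstream edges lay 70 bp apart and the edges inside the gene 2429 bp apart. These were the longest peaks at any of the 4 genes in their line, ranking 80 in REH and 172 in 697. LEF1-AS1, an antisense lncRNA gene, lies at the 5′ end of LEF1 in RefSeq, and the block cannot be assigned to either gene.

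Inside LEF1, REH had 2 further peaks, of 2297 bp at 53.1 to 55.4 kb and of 309 bp at 56.2 to 56.5 kb from the 5′ end. No 697 peak overlapped them, and 697 had no peak for 117866 bp between the block at the 5′ end and the far side of the gene. Beyond the 3′ end, toward HADH, both lines had peaks at 125 to 126 kb and from 130 kb on. Over the gene body alone, peaks covered 12370 bp in REH and 7335 bp in 697. Of all the bases under a peak in this window, 62.4% were under peaks of both lines. The 143 kb tiles with a peak in both lines had a median of 32.9% for the same value, and 10.8% of them reached that of LEF1.

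**Figure D2:**
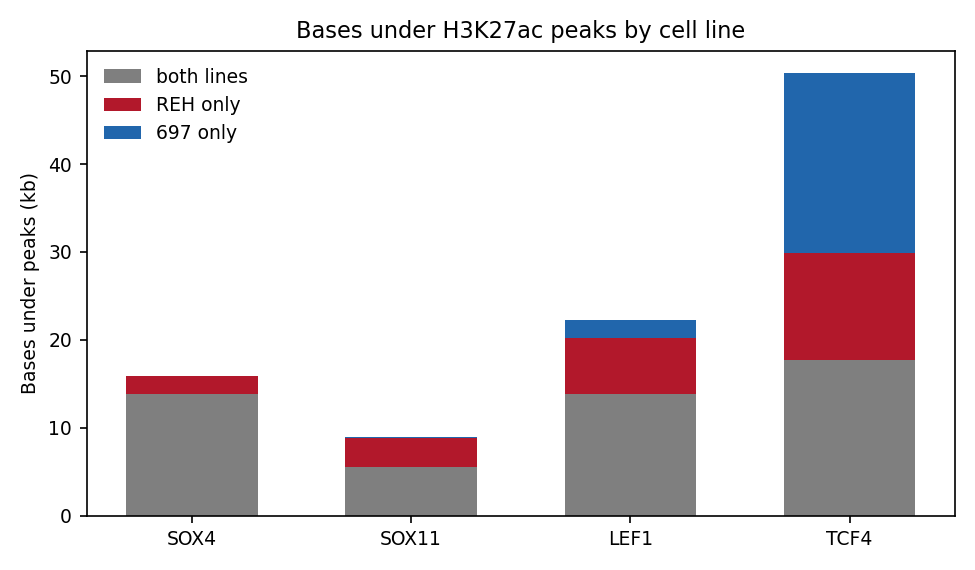
Bases under H3K27ac peaks in each window, in kb, divided into bases under peaks of both lines (grey), REH only (red) and 697 only (blue). SOX4 has no bases in 697 only, and TCF4 has more bases in 697 only, 20468, than in both lines, 17684.

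TCF4 differed from the other 3 genes in how its peaks were placed. REH had 16 peaks with a median length of 1506 bp and 697 had 28 with a median of 919.5 bp. The whole lists differed in the same direction, with 44626 peaks of median 1060 bp in REH and 74504 of median 871 bp in 697. Of the bases under a peak in either line, 35.1% were under peaks of both, compared with 87.2% at SOX4, 61.5% at SOX11 and 62.4% at LEF1. The median of 435 kb tiles with a peak in both lines was 30.7%, and 38.9% of them reached the TCF4 value. The low share at TCF4 was thus near that of other regions of its width. REH alone covered 12221 bp and 697 alone 20468 bp.

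No peak was called over the 5′ end of the TCF4 body used here in either line. On GRCh38, GENCODE v44 gives the gene a length of 443 kb and RefSeq 414 kb, and the body used has 415 kb, so starts further upstream are not covered by this statement. Upstream of the window, the closest peak lay 10.8 kb past the window edge in REH and 10.6 kb past it in 697. Of the peaks in the window, the nearest to the 5′ end was 46.4 kb inside the gene in REH and 46.5 kb inside in 697. There, on chromosome 18, the 5021 bp of REH at 53252566 to 53257586 and the 5080 bp of 697 at 53252442 to 53257521 lay over nearly the same bases, with 98.7% of the REH peak under that of 697. It was the longest TCF4 peak of REH. GENCODE v44 lists 93 transcripts of TCF4, and RefSeq has starts inside the gene, among them starts 2 and 3 above. Which of these starts lies under the shared peak on hg19 was not determined here.

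Other stretches of TCF4 were marked in both lines. Both had peaks at 75.5 kb and at 83 to 85 kb from the 5′ end, at 124 to 131 kb, at 147 to 148 kb, at 158 to 160 kb, at 203 to 204 kb, at 216 to 217 kb, at 313 to 318 kb and, past the 3′ end, at 416 kb. Of the 16 REH peaks, 11 overlapped a 697 peak, 68.8%, against 64.1% of all REH peaks. Of the 28 peaks of 697, 11 overlapped a REH peak, 39.3%, against 38.9% of all 697 peaks. The 5 unshared REH peaks measured 288 to 2362 bp and the 17 unshared peaks of 697 measured 198 to 2812 bp. The longest of these in REH was at 297 to 299 kb, a stretch in which 697 had none. In 697 it was at 102 to 104 kb, in a stretch without REH peaks.

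The lines also differed in where along TCF4 the covered bases lay. Between 100 and 150 kb from the 5′ end, 697 had 10 peaks over 12650 bp and REH had 4 over 8526 bp. Between 200 and 250 kb, 697 had 4 peaks over 7046 bp, 5770 bp of which lay in the longest TCF4 peak of that line, while REH had 2 peaks over 994 bp. Between 250 and 300 kb the order was the opposite, with 2650 bp in REH and 0 bp in 697. In the first 50 kb the lines were nearly equal, at 3586 and 3521 bp.

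**Figure D3:**
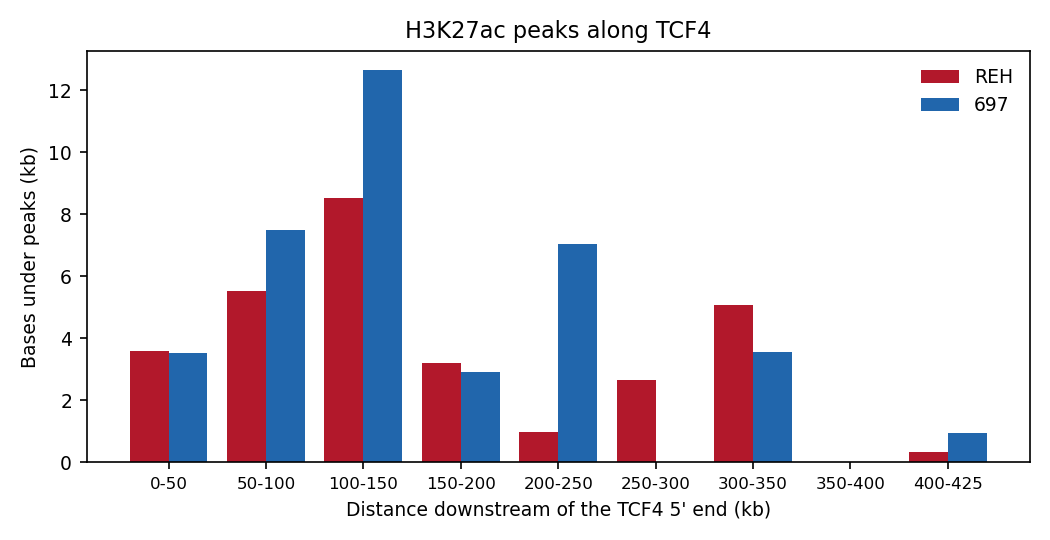
Bases under H3K27ac peaks along TCF4 in kb, in bins of 50 kb from the 5′ end, for REH (red) and 697 (blue). The last bin ends with the window. The lines are close in the first bin, 697 is higher at 50 to 150 kb and 200 to 250 kb, and only REH has peaks at 250 to 300 kb.

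Taking the 4 windows as one set, 17 of 25 REH peaks overlapped a 697 peak, 68.0% (95% Wilson interval 48.4 to 82.8), against 64.1% of all REH peaks. Of the 37 peaks of 697, 20 overlapped a REH peak, 54.1% (38.4 to 69.0), against 38.9% of all 697 peaks. Both background values lay within the intervals, which cover counting error only and treat neighbouring peaks as independent. At SOX4, SOX11 and LEF1, each of the 9 peaks of 697 overlapped a REH peak, and all 17 unshared peaks of 697 were at TCF4. The shared share of the 697 peaks at TCF4, 39.3%, was close to the 38.9% of all 697 peaks.

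The surroundings of the 4 genes were then examined to 500 kb from each gene body, a range chosen after the data were seen. At SOX4, the window values were close, but the flanks were not. Within 500 kb, REH had 29 peaks over 52588 bp and 697 had 88 peaks over 114365 bp, 2.17 times as many bases. On the downstream side, where RefSeq places the lncRNA gene CASC15, peaks at 100 to 300 kb covered 7027 bp in REH and 33037 bp in 697, which is 4.7 times as many. The longest of them was a 697 peak of 6934 bp, from 21822534 to 21829467, that overlapped no REH peak. Of the 88 peaks of 697 in this range, 21 overlapped a REH peak, 23.9%, against 38.9% of all 697 peaks. Of the 29 REH peaks, 21 overlapped one of 697, 72.4%, against 64.1% of all REH peaks. On the upstream side neither line had a peak between 10 and 100 kb from the gene.

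Around SOX11 the lines were in the opposite order. Within 500 kb, REH had 13 peaks over 20177 bp and 697 had 7 over 9973 bp, so REH had 2.02 times as many bases although its whole list holds fewer peaks. Beside the gene itself, the largest part of this came from 10 to 100 kb upstream, with 5217 bp in REH and 1112 bp in 697. It holds 3560 bp under 1 REH peak at 5808794 to 5812353, 19.6 kb before the 5′ end at its nearest base, which no 697 peak overlapped. Beyond 100 kb downstream, REH peaks covered 2035 bp up to 300 kb and 1093 bp from there to 500 kb, and 697 had none.

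LEF1 and TCF4 had smaller ratios in this range. The ratio was 1.22 at LEF1, where REH had 55571 bp and 697 had 67592 bp. It was 1.44 at TCF4, where REH had 39376 bp and 697 had 56529 bp. The higher value of 697 at LEF1 was the reverse of the order within the window, and it came with 13515 bp in 697 and 5281 bp in REH at 100 to 300 kb upstream. Just upstream of TCF4, at 10 to 100 kb, 697 had 6881 bp and REH 1352 bp. These ranges hold other genes, and none of these peaks was assigned to a target. Over the whole lists, peaks covered 67.9 Mb in REH and 102 Mb in 697, so more bases in 697 are the usual case. At these ranges 2 of the 4 genes, SOX4 and SOX11, met the rule for a differential locus. Of tiles as wide as the 4 ranges, it called 45.9% at the width for SOX4, 45.3% for SOX11, 43.6% for LEF1 and 41.0% for TCF4, so 2 of 4 is near the usual share.

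**Figure D4:**
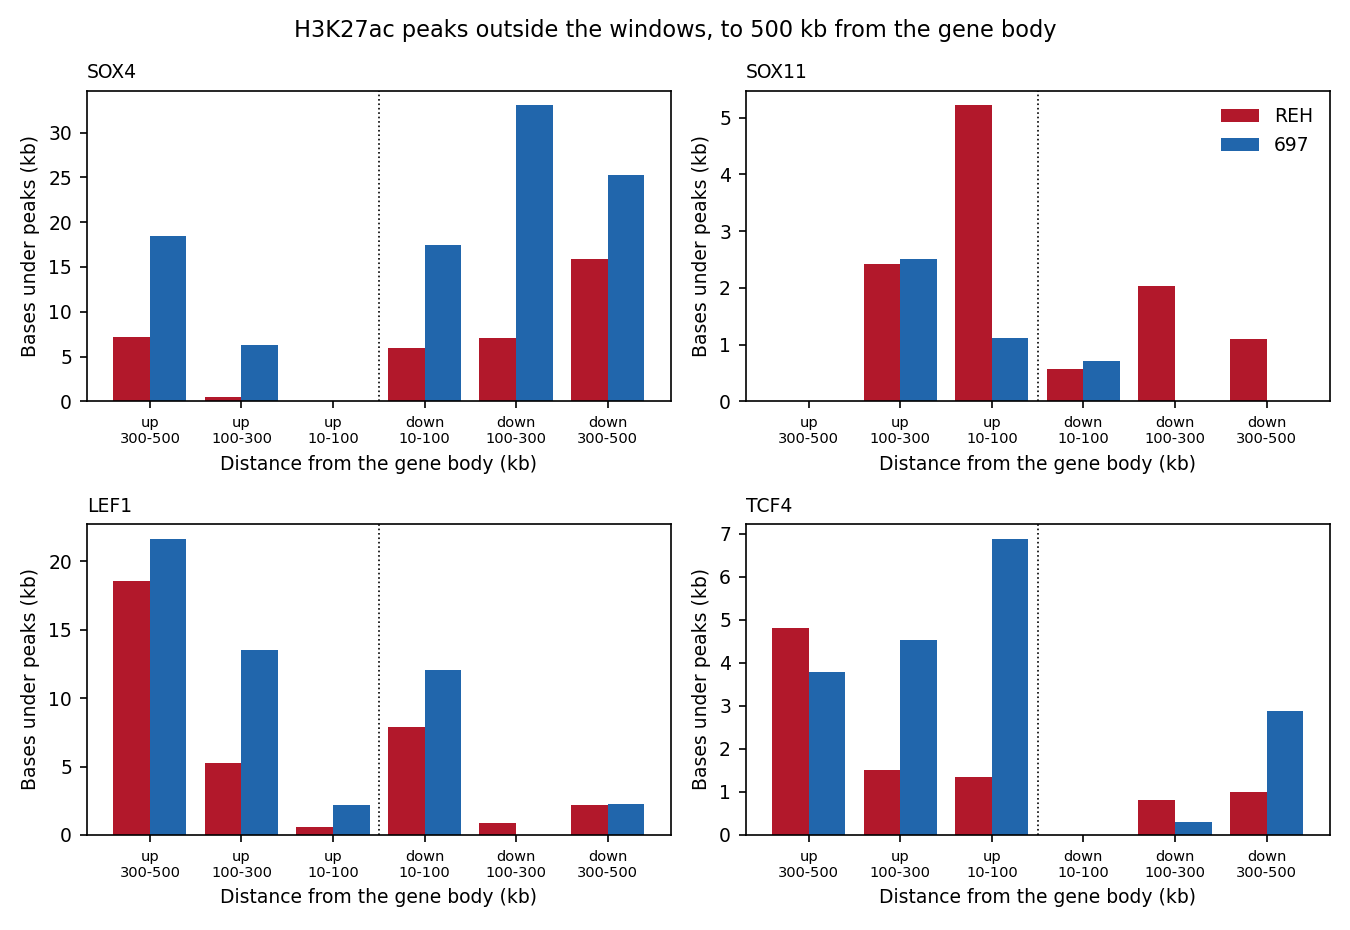
Bases under H3K27ac peaks outside the windows, in kb, by distance from the gene body upstream (left of the dotted line) and downstream (right), for REH (red) and 697 (blue); each panel has its own scale. At SOX4 697 is higher in every bin with a peak, and at SOX11 REH is higher at 10 to 100 kb upstream and alone beyond 100 kb downstream.

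The related genes were SOX12, the remaining SOXC gene; TCF7, TCF7L1 and TCF7L2, the other TCF/LEF genes; the E protein genes TCF3 and TCF12; the inhibitors ID1 to ID4; and CTNNB1 and AXIN2 of the Wnt pathway. Of these 12 genes, 10 had a peak in their window in REH and 12 in 697. By the rule above 6 of the 12 were differential, 2 with more bases in REH and 4 with more in 697. The same rule called 67.7% of 26 kb tiles, 57.9% of 143 kb tiles and 51.7% of 435 kb tiles. Of tiles with a peak in both lines it called 40.4% to 42.2%. No share was computed at the widths of the related windows, so this count is a description only. Their median covered share was 7.14% of the window in REH and 7.3% in 697, below the shares of SOX4, SOX11 and LEF1 in both lines. TCF4 had 6.87% in REH and 8.77% in 697. Single related genes were higher than the median. In both lines ID3, with 42.6% in REH and 43.0% in 697, exceeded SOX11 and LEF1, and TCF3 and SOX12 exceeded LEF1. The shares come from windows of unlike width, from 22 kb at ID1 to 391 kb at TCF12.

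SOX12 had a peak near its 5′ end in both lines, with 4482 bp in REH and 3577 bp in 697. Among the TCF/LEF genes, TCF7, a factor best known from T cells, had 8878 bp in REH and 5851 bp in 697, over a body entered as 34 kb where RefSeq has 40.0 kb on GRCh38. The other two had more in 697. TCF7L1 had 1963 bp in REH and 12676 bp in 697, and TCF7L2 had 9515 and 19513 bp. None of the TCF7L1 peaks lay within 1000 bp of its 5′ end in either line.

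Of the E protein genes, TCF3 had 14921 bp in REH and 11822 bp in 697, with a longest peak of 7738 and 7285 bp. At TCF12 the 24293 bp of REH were 1.88 times the 12888 bp of 697. The ID genes, whose products bind E proteins without binding DNA, were unlike each other. ID3 had 9796 and 9890 bp, close in both lines. ID4 had 0 bp in REH and 6938 bp in 697, and ID1 had 0 and 238 bp. ID2 had 1859 bp in REH and 607 bp in 697. For the Wnt genes, CTNNB1, which encodes β-catenin, had 2276 and 3808 bp, and AXIN2, a common target of the pathway, had 4806 bp in REH and 1704 bp in 697.

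**Figure D5:**
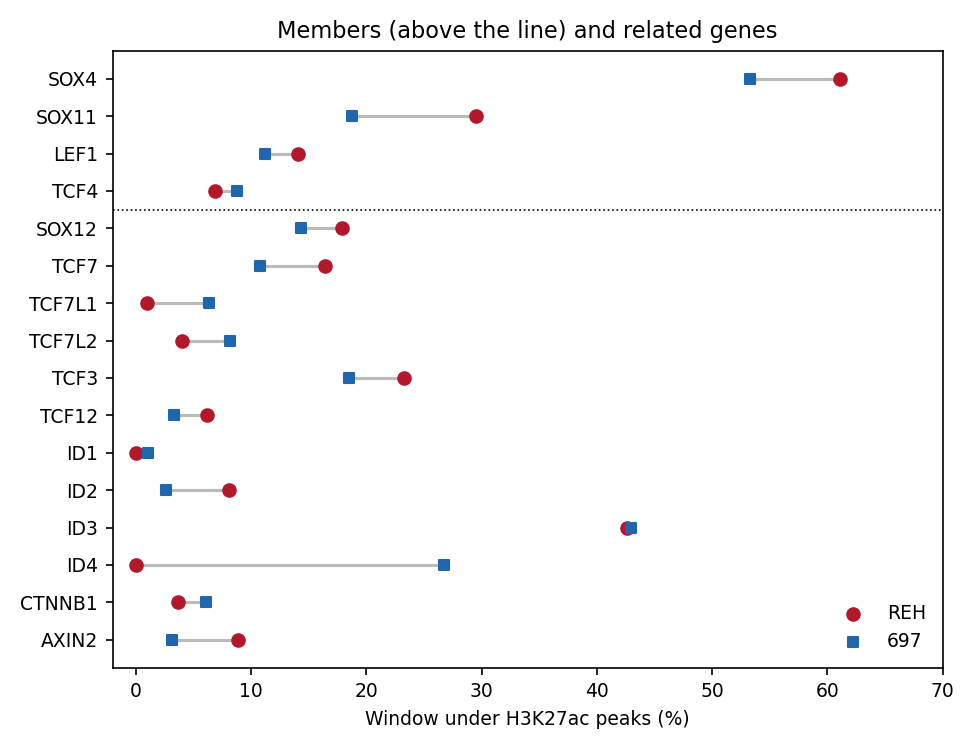
Percent of the window under H3K27ac peaks for SOX4, SOX11, LEF1 and TCF4 (above the dotted line) and the 12 related genes, in REH (red circles) and 697 (blue squares). SOX4 has the highest value in both lines, 61.1% and 53.3%, and ID4 has the widest gap, 0% in REH and 26.7% in 697.

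The labelled cell type was checked on lineage genes. CD79A and PAX5, genes of B-lineage cells, had a peak within 1000 bp of the 5′ end in both lines, where the PAX5 body was entered as 197 kb and RefSeq has 201 kb on GRCh38. CD3E, of T cells, had none in REH and 1666 bp in 697 away from its 5′ end, and GATA1, of erythroid cells, had 2366 and 2078 bp, also away from it. MPO, a myeloid gene, had peaks near its 5′ end in both lines, over 9445 and 8457 bp. Their part in the values above was not tested.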

How the data were processed

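H3K27ac ChIP-seq was done on 1 library of REH and 1 of 697. Per the labels and the methods, the authors mapped reads to hg19 with Bowtie2 (Bowtie in the methods, which also name an older MACS). The deposited lists were made per line against its input with MACS 2.1.0.20150731 in broad mode, per the file headers, with q-value cutoffs of 0.05 and 0.1 and 1 tag kept per position. For each peak the authors deposited a mean pileup signal, a fold enrichment ratio, and the p-value and q-value as −log10. The main comparisons used only positions and lengths. Pileups, and filters on the p-values and q-values, appear in the closing sections. The Spearman correlation of length with pileup was 0.048 over the REH peaks and 0.03 over those of 697. The files give no tags per peak.

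Peaks were read with 1-based starts. Covered bases were cut at the window ends, and lengths are of whole peaks. Tiles were laid from the first base of each chromosome to its last peak, and those without a peak were left out. The gene bodies of related genes and lineage markers were entered by hand at kilobase precision without an hg19 annotation. For 20 of all 22 genes used, the 4 members included, the span was within 3 kb of RefSeq on GRCh38, the exceptions being TCF7 and PAX5. This compares gene length only and does not check the hg19 positions of the windows or 5′ ends. The members and lists were chosen with earlier results of these data known, and the listed genes are named, except 1 lineage marker that is not reported here. Tests across cultures were not possible. Alternatives are given in the closing section. Overlap calls were tested on simulated data. Computation used pandas 2.3.3 and numpy 2.4.6 under Python 3.11.15, correlations and intervals scipy 1.17.1, and plots matplotlib 3.10.9.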

Additional observations from a re-analysis of the deposited data

How the results depend on the processing

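Of 83 values under 12 alternatives, 57 stayed within 1.5 times the reported value or within its interval and 26 did not, and the causes were not tested. The number of differential loci was recomputed under all alternatives but the one on overlap of the shorter peak, and was 0 except with 500 kb flanks, added after seeing the data, where it was 2. The difference in covered bases, REH minus 697, then was −61777 bp at SOX4, 10204 bp at SOX11, −12021 bp at LEF1 and −17153 bp at TCF4, and 35.6% of the 697 peaks were shared. With 50 kb flanks it was −3632 bp at SOX4, 7165 bp at SOX11 and −660 bp at LEF1, so that the order of the lines at SOX4 and LEF1 depends on the flank. Without flanks it was 111 bp at SOX4. At −log10(p) of at least 10 no peak was left at SOX4, SOX11 and LEF1 (0 bp), so that the count of loci rests on TCF4 there, TCF4 had −3054 bp, and 0% of the peaks of either line were shared. At an FDR of at most 5% the differences were 4478 bp at SOX4, 6368 bp at LEF1 and −165 bp at TCF4. These filters use the deposited p-values and q-values. With equal peak numbers by length TCF4 had −4100 bp and 70.4% of the 697 peaks were shared, and with peaks of at least 1000 bp −2669 bp and 76.2%. Merging within 2000 bp, also added, gave 414 bp at SOX4 and −17254 bp at TCF4. When only loci with peaks in 1 line counted, 2 of the 12 related loci were differential. No paired analysis was possible because each line has 1 library.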

Other observations

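The deposited pileups of the longest peaks were also read. The REH peak of 13148 bp over SOX4 had a pileup of 19.5 and the REH peak of 15028 bp at LEF1 one of 24.31, against a median of 21.61 over all REH peaks. In 697, the longest LEF1 peak had 18.91 and the longest TCF4 peak 8.71, against a median of 14.08. The longest SOX4 peak of 697 had 18.12 and the longest TCF4 peak of REH 18.39. At SOX11 the longest peak had 12.55 in REH, below the median of its list, and 16.45 in 697, above it. Of all peaks in the same list, 85.3% in REH and 40.0% in 697 had at least the pileup of that SOX11 peak. The highest pileup at any of the 4 genes was at a TCF4 peak in both lines, 48.1 in REH and 48.3 in 697. These were different peaks. That of REH lay 147 to 148 kb from the 5′ end. That of 697 lay 77.9 to 78.6 kb from it and overlapped no REH peak.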
